A study of Mus musculus with 9 samples.

Results

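The genes described here build the coat of the lipid droplet and turn over the triglyceride inside it, and they were followed in 4T1 cells given palmitate or not and grown in 3D or 2D. There were 10 of them, out of 24421 genes in the count table: the coat proteins Plin2, Plin3 and Plin4, the droplet-bound Hsd17b11, the lipase Pnpla2 with its co-activator Abhd5 and its inhibitors Hilpda and G0s2, and the last enzymes of triglyceride synthesis, Dgat1 and Dgat2. The 10 genes were selected on their role at the lipid droplet with earlier results of these same libraries in view, among them higher Plin2 and Hsd17b11 with palmitate, so their differences between conditions are given as a description. Whether a member passed the threshold applied to all genes is stated as part of that description, and nothing is supported with it. Of the 10 genes, 9 passed the filter on low counts and G0s2 did not.

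The data were RNA-seq read counts from 4T1, a line of mammary carcinoma cells that arose in a BALB/c mouse and lacks the oestrogen, progesterone and HER2 receptors. There were 9 libraries from cells collected after 5 days, with 3 from 3D culture without extra palmitate, 3 from 3D culture with 75 µM palmitate and 3 from 2D culture with 75 µM palmitate. In the methods of the study, 3D cultures were plated on a base of soft agar, palmitate was coupled to albumin and came on top of the serum in the medium, and cultures without fatty acid received the vehicle. The labels name no engineered allele for any of the 3 groups. A 2D culture without palmitate was not analysed here, so the effect of palmitate was compared within 3D and the effect of growth form was compared with palmitate present, and both comparisons share the 3 libraries from 3D with palmitate. The methods speak of biological replicates for the study's statistics in general, and neither they nor the labels say for these libraries whether the 3 of a group came from separate cultures, so an SD or a p-value measures the spread between libraries, which may be technical.

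Cells store excess fatty acid as triglyceride in lipid droplets, whose surface is a phospholipid monolayer coated by perilipins and other proteins. Diacylglycerol acyltransferases add the last fatty acid to make triglyceride. Adipose triglyceride lipase, encoded by Pnpla2, removes the first fatty acid again, a step that ABHD5 stimulates and that HILPDA and G0S2 block. PLIN2 is the main perilipin of most cells that are not adipocytes, and its protein is stable only while it is bound to a droplet, so its mRNA and protein levels need not move together.

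Levels are given as CPM, the reads of a gene per 1000000 reads of its library after scaling with edgeR's TMM factors, and a gene was called when its p from edgeR's quasi-likelihood test, adjusted by the Benjamini-Hochberg method over 12575 genes, was under 0.05. Total counts ranged from 6595514 to 31177756 per library, and the ribosomal transcript Rn45s took 1.77% to 5.38% of them. The 6 epithelial markers (Epcam, Cdh1, Krt8, Krt18, Cd24a and Cldn4) were read in every library, and their summed level ranged from 4760 to 4800 CPM in 3D without palmitate, from 4730 to 4840 CPM in 3D with palmitate and from 3490 to 3730 CPM in 2D. Epcam was lower in 2D than in 3D with palmitate, at 257 to 266 against 672 to 749 CPM, and Cldn4 was higher, at 213 to 235 against 103 to 142 CPM. The 5 adipocyte markers (Adipoq, Plin1, Retn, Cfd and Lep) summed to at most 0.448 CPM in any library, with Lep at 0 counts in all 9. The 5 macrophage markers (Ptprc, Adgre1, Csf1r, Cd68 and Lyz2) summed to 7.0 to 8.93 CPM in 3D without palmitate, 8.73 to 11.5 CPM in 3D with palmitate and 24.5 to 28.0 CPM in 2D, nearly all of it Cd68, a lysosomal protein, while Adgre1 was at 0 in every library and Lyz2 at no more than 1 count. Ptprc, the pan-leukocyte marker of that list, went the other way, with 7 to 11 counts in 3D without palmitate, 4 to 7 in 3D with palmitate and 0 to 2 in 2D. The part of these marker differences in the values of the lipid droplet genes was not tested. In these bulk libraries, fewer cells of a type and less RNA per cell cannot be told apart. Within 3D with palmitate, libraries 1 and 3 stood apart in opposite directions along the GC content of genes. Relative to the other libraries of the group, genes above 54.6% GC had a median deviation of 0.21 on the log2 scale in library 1 and -0.21 in library 3, and genes below 44.9% GC had -0.18 and 0.20, while the other 7 libraries stayed between -0.06 and 0.07.

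Plin2 was the member with the highest level per kilobase of merged exons in every condition, and its level differed between all 3 conditions. The gene lies on chromosome 4 from 86648386 to 86670060 on the minus strand of GRCm38. Its levels were 79.4, 77.1 and 79.7 CPM in 3D without palmitate, 167, 166 and 150 CPM in 3D with palmitate, and 247, 242 and 256 CPM in 2D with palmitate. The 3 groups did not overlap, and every library with palmitate lay above every library without it. In 3D the level was 2.05-fold higher with palmitate (log2 fold change 1.03, SE 0.063, 95% interval 0.90 to 1.17). Between growth forms the level was 1.54-fold higher in 2D than in 3D (log2 fold change -0.62, SE 0.061, for 3D minus 2D). Plin2 was called in both comparisons.

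Plin3, a perilipin that moves between the cytosol and young droplets, did not follow Plin2. It lies on chromosome 17 from 56277476 to 56292873, minus strand. Its levels were 120, 108 and 115 CPM in 3D without palmitate, 129, 117 and 100 CPM in 3D with palmitate, and 87.4, 85.5 and 89.2 CPM in 2D. Both 3D groups overlapped, and the 2D libraries lay below all 6 of the 3D libraries. Palmitate gave a log2 fold change of 0.03 (SE 0.080, 95% interval -0.15 to 0.20), which was not called. Growth form gave a log2 fold change of 0.41 (SE 0.081), which was called as 1.33-fold higher in 3D.

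Plin4, a perilipin of adipocytes and muscle, had few reads. It lies on chromosome 17 from 56100591 to 56109803, minus strand, and overlaps Hdgfl2 on the opposite strand. It had 12, 11 and 6 counts in 3D without palmitate, 8, 12 and 3 counts in 3D with palmitate, and 4, 7 and 14 counts in 2D. The groups overlapped throughout, and neither comparison was called. The 95% intervals were wide, from -1.18 to 1.03 on the log2 scale with palmitate and from -0.77 to 1.53 for 3D minus 2D, and differences inside them could not be resolved at these counts. The strand setting of the read counting is not given in the sources used here, so Plin4 may share reads with the overlapping gene or lose them.

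**Figure D1:**
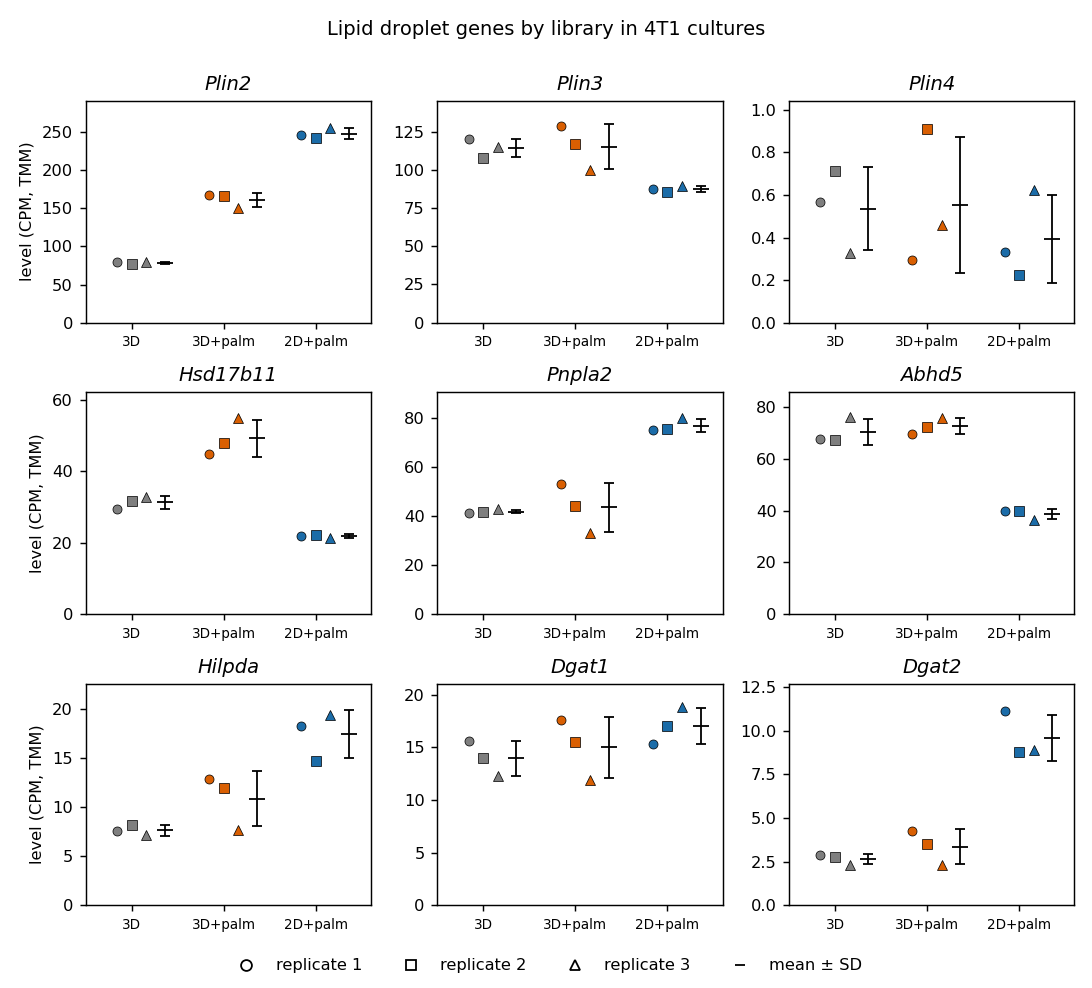
Level of the 9 tested genes in every library, in CPM on axes that start at 0 and differ between panels, with 3 libraries per condition as points and the mean with its SD as a bar. Plin2 lies at 3 separate levels, lowest in 3D without palmitate and highest in 2D with palmitate, Hsd17b11 is highest in 3D with palmitate and lowest in 2D, and the other genes called between growth forms have all 2D libraries on one side of 3D with palmitate.

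Hsd17b11, a short-chain dehydrogenase that sits in the endoplasmic reticulum and on lipid droplets, was the other member called with palmitate. It lies on chromosome 5 from 103989762 to 104021919, minus strand. Its levels were 29.3, 31.7 and 32.7 CPM in 3D without palmitate, 44.8, 47.9 and 54.8 CPM in 3D with palmitate, and 21.9, 22.2 and 21.2 CPM in 2D with palmitate. The groups did not overlap, and their order differed from that of Plin2: 3D with palmitate was highest and 2D with palmitate was lowest, below 3D without palmitate. In 3D the level was 1.55-fold higher with palmitate (log2 fold change 0.64, SE 0.082, 95% interval 0.46 to 0.81). Against 2D it was 2.23-fold higher in 3D (log2 fold change 1.16, SE 0.083). The transcript is GC-poor for this set, at 45.1% GC, and the library with the highest level was library 3, in which GC-poor genes deviated upward. With the trend of GC content and length removed, Hsd17b11 was still called in both comparisons.

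The DNA upstream of the start is shown for Plin2 and Hsd17b11, the members called with palmitate, and for Plin3, a coat gene that, like Plin4, was not. The sequences come from RefSeq on GRCm38.p6, are written 5′ to 3′ on the gene's own strand, and run up to the RefSeq start, cut short where an exon of the gene in GENCODE M21 reached into the window. The windows are chr4:86670061-86670309, chr5:104021920-104022046 and chr17:56290512-56290761, all on the minus strand, and the last of these lies inside the GENCODE span of Plin3, outside its exons. Capitals mark AGGTCA, the core repeat read by PPAR and other nuclear receptors (TGACCT on the other strand), and GCGTG or ACGTG, the cores read by the AHR and HIF families (CACGC or CACGT on the other strand, with ACGTG matching itself with an overlap where the letters are CACGTG).
Plin2: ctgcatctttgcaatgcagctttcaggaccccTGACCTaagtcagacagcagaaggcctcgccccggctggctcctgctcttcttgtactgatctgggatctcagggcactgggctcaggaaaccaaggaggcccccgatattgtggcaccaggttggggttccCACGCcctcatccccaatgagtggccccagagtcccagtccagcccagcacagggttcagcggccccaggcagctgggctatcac
Hsd17b11: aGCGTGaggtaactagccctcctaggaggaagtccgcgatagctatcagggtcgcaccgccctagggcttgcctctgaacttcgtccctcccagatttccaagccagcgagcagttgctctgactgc
Plin3: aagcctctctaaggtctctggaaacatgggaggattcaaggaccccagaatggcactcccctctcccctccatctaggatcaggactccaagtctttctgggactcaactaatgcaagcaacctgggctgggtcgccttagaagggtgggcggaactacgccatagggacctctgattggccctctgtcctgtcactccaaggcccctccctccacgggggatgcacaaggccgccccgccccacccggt
The Plin2 window held AGGTCA and GCGTG once each, both read on the opposite strand, the Hsd17b11 window held GCGTG, and the Plin3 window held none of the 3 motifs. Promoters were matched for 8 of the 10 genes in the RefSeq table, all but Dgat1 and Dgat2. In the 250 bases before the start, AGGTCA was found in 2 of the 8 (Plin2 and Abhd5) and in 14.0% of all 32851 promoters. ACGTG was found in 1 of the 8, Hilpda, and in 16.6% of all promoters. GCGTG was found in 5 of the 8 (Plin2, Hsd17b11, Abhd5, Hilpda and G0s2) and in 28.2% of all promoters. A member was counted where any of its windows matched, and Hilpda had windows at different starts. The shares over all promoters count each window on its own. A match in a window of this length describes its letters and not the binding of a factor.

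The lipase Pnpla2 and its co-activator Abhd5 differed between growth forms in opposite directions, and neither was called with palmitate. Pnpla2 lies on chromosome 7 from 141455198 to 141460743, plus strand. Its levels were 41.2, 41.5 and 42.6 CPM in 3D without palmitate, 53.1, 44.1 and 33.2 CPM in 3D with palmitate, and 75.0, 75.4 and 79.9 CPM in 2D. All 2D libraries lay above all 3D libraries, and the 3 libraries from 3D with palmitate spread to both sides of those without it. The level was 1.71-fold higher in 2D (log2 fold change -0.78, SE 0.11, for 3D minus 2D), which was called, while palmitate gave 0.10 on the same scale (SE 0.11, 95% interval -0.14 to 0.34). Pnpla2 is GC-rich at 57.0% GC, and its spread in 3D with palmitate had the order of the GC-linked deviation of these libraries, with library 1 highest and library 3 lowest; the part of that deviation in the spread was not tested.

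Abhd5 lies on chromosome 9 from 122351608 to 122381524, plus strand. Its span overlaps A730085K08Rik on the opposite strand, so Abhd5 may share or lose reads. Its levels were 67.8, 67.3 and 76.0 CPM in 3D without palmitate, 69.7, 72.2 and 75.8 CPM in 3D with palmitate, and 39.7, 39.8 and 36.3 CPM in 2D. The 2D libraries were all lower than the 3D libraries, and both 3D groups overlapped. The level was 1.88-fold higher in 3D than in 2D (log2 fold change 0.91, SE 0.072), which was called, and palmitate gave a log2 fold change of 0.04 (SE 0.070, 95% interval -0.11 to 0.19).

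Of the inhibitors of the lipase, Hilpda was measured and G0s2 had 1 read in all. Hilpda, a small droplet protein known as a target of hypoxia signalling, lies on chromosome 6 from 29272488 to 29275446, plus strand. Its levels were 7.56, 8.21 and 7.16 CPM in 3D without palmitate, 12.9, 12.0 and 7.66 CPM in 3D with palmitate, and 18.3, 14.7 and 19.4 CPM in 2D. The 2D libraries were the highest, and library 3 of 3D with palmitate lay within the range of the libraries without palmitate. Palmitate gave a log2 fold change of 0.59 (SE 0.16, 95% interval 0.24 to 0.94), which was not called. It was called at 0.72 without that library, the one with the fewest reads, and at 0.53 with the trend of GC content and length removed. Hilpda was called as 1.51-fold higher in 2D than in 3D with palmitate (log2 fold change -0.59, SE 0.15, for 3D minus 2D), and this difference was -0.37 with the same trend removed. G0s2, on chromosome 1 from 193272161 to 193273217, minus strand, had 1 read in 1 of the 2D libraries and 0 in the other 8, so it was not tested. Its span overlaps Lamb3 on the opposite strand.

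The acyltransferases that complete triglyceride differed from each other. Dgat1, the enzyme of the endoplasmic reticulum, lies on chromosome 15 from 76502015 to 76511953, minus strand. Its levels were 15.6, 14.0 and 12.3 CPM in 3D without palmitate, 17.6, 15.5 and 11.9 CPM in 3D with palmitate, and 15.3, 17.0 and 18.8 CPM in 2D. The 3 groups overlapped and neither comparison was called, with log2 fold changes of 0.15 (95% interval -0.13 to 0.44) with palmitate and -0.14 (95% interval -0.41 to 0.14) for 3D minus 2D. Dgat2, which also works at the droplet surface, lies on chromosome 7 from 99153658 to 99182719, minus strand. It had 2.88, 2.78 and 2.33 CPM in 3D without palmitate, 4.27, 3.49 and 2.30 CPM in 3D with palmitate, and 11.1, 8.78 and 8.87 CPM in 2D. The 2D libraries lay above all others, and the level was 2.56-fold higher in 2D (log2 fold change -1.36, SE 0.17, for 3D minus 2D), which was called and had the greatest size among the members in that comparison. With palmitate in 3D the log2 fold change was 0.46 (SE 0.20, 95% interval 0.03 to 0.89), not called with all libraries and called at 0.58 without library 3 of 3D with palmitate. Dgat1 and Dgat2 are GC-rich at 56.5% and 56.3% GC, and in both genes library 1 was the highest and library 3 the lowest of 3D with palmitate.

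Across the set, 2 of the 9 members tested were called with palmitate in 3D, Plin2 and Hsd17b11, both higher, where 2.19% of all genes were called and 1.38% were called higher. The groups did not overlap for these 2 members, as for 18.6% of all genes. The median log2 fold change was 0.15 over the 9 members and 0.01 over all genes. Because the members were chosen with this comparison known, nothing is read from these counts. Between 3D and 2D with palmitate, 7 of the 9 (77.8%) were called, where 68.3% of all genes were called. Of these, 3 were higher in 3D (Hsd17b11, Abhd5 and Plin3), where 34.5% of all genes were, and 4 were lower in 3D (Dgat2, Pnpla2, Plin2 and Hilpda), where 33.9% were. The groups did not overlap for the same 7 members and for 69.4% of all genes. The members' share of calls between growth forms was thus near that of all genes.

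**Figure D2:**
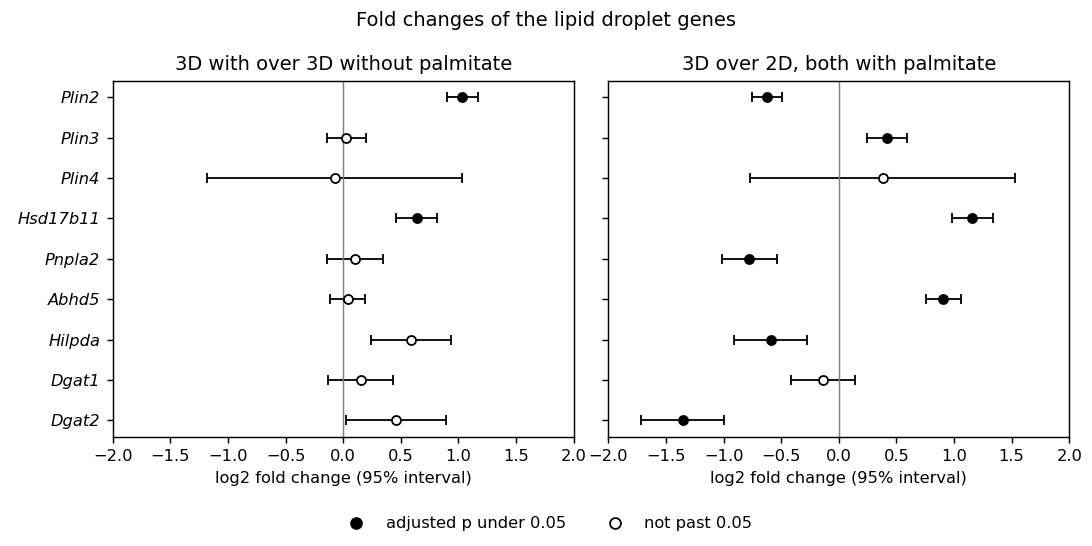
Log2 fold change of each of the 9 members tested with its 95% interval, for 3D with against without palmitate and for 3D against 2D with palmitate, with called genes marked apart from those not called. With palmitate only the intervals of Plin2 and Hsd17b11 belong to called genes, while between growth forms 3 called members lie above 0 and 4 lie below it.

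Read counts were divided by the merged length of all annotated exons of a gene to compare levels between genes. This length can exceed that of the transcript expressed, and it was 1888 bases for Plin2 and 3645 bases for Plin3. Before division Plin3 was above Plin2 in 3D without palmitate, at 114 against 78.7 CPM, so their order there depends on the lengths used. On this scale Plin2 led in 3D with palmitate at 85.2 ± 4.98 CPM per kilobase (SD, n = 3), followed by Plin3 at 31.7 ± 3.99, Abhd5 at 23.0, Pnpla2 at 16.6, Hsd17b11 at 15.1, Hilpda at 9.85, Dgat1 at 7.94, Dgat2 at 1.48 and Plin4 at 0.0961. In 3D without palmitate Plin2 and Plin3 were closer together, at 41.7 ± 0.760 and 31.3 ± 1.55 CPM per kilobase. In 2D with palmitate Plin2 stood at 132 ± 3.80 CPM per kilobase and Pnpla2, at 29.3, took the place next to it, ahead of Plin3 at 24.0 ± 0.504, while Hsd17b11, at 6.66, was below Hilpda at 15.8 and Dgat1 at 9.02. In every condition Dgat1 was above Dgat2 on this scale, at 7.41 against 1.18 CPM per kilobase in 3D without palmitate and 9.02 against 4.23 in 2D.

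The balance between members was also taken within each library, where the scaling between libraries cancels. Plin2 made up 56.1%, 57.8% and 57.2% of the summed Plin2, Plin3 and Plin4 reads per kilobase in 3D without palmitate, 71.3%, 73.1% and 74.2% in 3D with palmitate, and 84.5%, 84.5% and 84.7% in 2D. The shares did not overlap between conditions. Plin2 held the larger part of these perilipin reads in every library after division by length, while in plain read counts Plin3 had more reads than Plin2 in 3D without palmitate and the Plin2 share there was 39.8% to 41.4%. The ratio of the inhibitors Hilpda plus G0s2 to Pnpla2 per kilobase was 0.436, 0.470 and 0.400 without palmitate, 0.579, 0.648 and 0.548 in 3D with palmitate, and 0.580, 0.464 and 0.580 in 2D. The 3D groups did not overlap on this ratio, while 2D overlapped each of them. With G0s2 at 0 counts in 8 of 9 libraries and 1 count in the other, this was in effect the ratio of Hilpda alone to Pnpla2. In library 3 of 3D with palmitate Hilpda was at 7.66 CPM, within its range without palmitate, and Pnpla2 had its lowest level, 33.2 CPM. Hilpda has 51.1% GC and Pnpla2 57.0% GC, so a GC-linked deviation need not cancel in this ratio, and its part was not tested. The ratio of the co-activator Abhd5 to Pnpla2 per kilobase, a quantity chosen after its values were seen, was 1.37, 1.35 and 1.48 without palmitate, 1.09, 1.36 and 1.90 in 3D with palmitate, and 0.440, 0.438 and 0.377 in 2D. It was lower in all 2D libraries than in all 3D libraries, with the widest spread in 3D with palmitate. Abhd5 has 45.7% GC and Pnpla2 57.0% GC, and a GC-linked deviation does not cancel in their ratio. The part of that deviation in this spread was not tested.

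**Figure D3:**
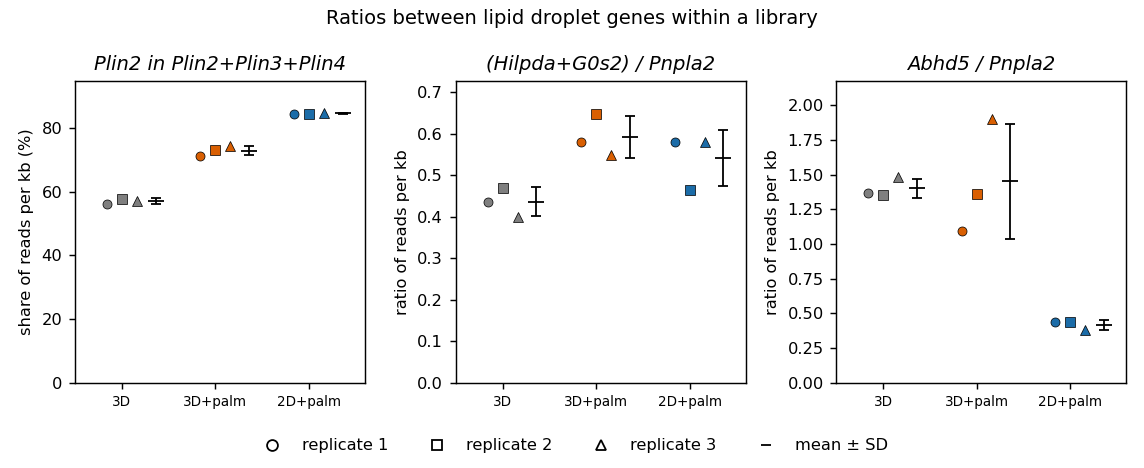
Ratios between members within each library, per kilobase of merged exons, with 3 libraries per condition as points and the mean with its SD as a bar. The Plin2 share of perilipin reads is 57.0%, 72.9% and 84.5% on average in 3D without palmitate, 3D with palmitate and 2D, the inhibitor ratio, which is almost wholly Hilpda, is lowest in 3D without palmitate at 0.435, and the Abhd5 to Pnpla2 ratio is lowest in 2D at 0.419.

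Other genes of the lipid droplet and of triglyceride turnover were read from 4 lists with 49 genes, of which 36 passed the filter. The lists, like the members, were chosen with earlier results of these data known, so their counts are given as a description. With palmitate in 3D, 1 of the 36 was called (2.78%), near the 2.19% of all genes, and the median log2 fold change was 0.02, against 0.01 over all genes. The called gene was Mettl7b, a droplet-associated methyltransferase-like protein, at 1.58 ± 0.388 against 0.711 ± 0.224 CPM (SD, n = 3), with a log2 fold change of 1.27 (SE 0.31, adjusted p = 0.0478 in edgeR's quasi-likelihood test). It was low in counts and kept its call in 6 of 18 alternatives. No gene was called among the 7 assembly genes, the 12 synthesis genes and the 6 lipolysis genes tested by edgeR, where 2, 3 and 1 of them had an unadjusted p under 0.05 and DESeq2 called 0, 1 and 0. Between 3D and 2D with palmitate, 29 of the 36 were called (80.6%), 15 higher and 14 lower in 3D, where 68.3% of all genes were called, 34.5% higher and 33.9% lower. The median log2 fold change was 0.08, against 0.01 over all genes.

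By list, 10 of 11 coat genes (90.9%) were called between growth forms, 6 higher in 3D and 4 lower, and the counts of the 4 lists stand beside the 68.3% called over all genes. Ldah, a droplet hydrolase, was at 74.9 ± 2.25 CPM in 3D and 45.3 ± 2.43 CPM in 2D (log2 fold change 0.73, adjusted p = 1.56e-07 in edgeR's quasi-likelihood test), and Mettl7a1 had a log2 fold change of 1.47. Mettl7b was lower in 3D, at 1.58 against 15.5 CPM (log2 fold change -3.20), as was Spart, a droplet adaptor protein, at 58.7 against 99.5 CPM (-0.77). In the assembly list 6 of 7 were called, 4 higher and 2 lower. Pcyt1a, the rate-limiting enzyme of phosphatidylcholine synthesis, was at 66.5 against 35.3 CPM (log2 fold change 0.91), and Tmem68 had 0.29, a call that was lost without library 3 of 3D with palmitate and without library 3 of 2D. Lower in 3D were Lpcat2, a lysophospholipid acyltransferase, at -1.18 and Bscl2, the seipin that shapes the site of droplet formation, at -0.59. In the synthesis list 9 of 12 were called, 3 higher and 6 lower. Lpin2, a phosphatidate phosphatase, at 0.29 and Gpam, the glycerol-3-phosphate acyltransferase of mitochondria, at 0.52 were higher. Neither was called with the trend of GC content and length removed, where Lpin2 turned to -0.04 and Gpam stood at 0.17. That setting also moved the median over all genes in this comparison, from 0.008 to -0.095. Agpat1 at -0.52 and the glycerol kinase Gk at -0.66 were lower. Of 6 lipolysis genes 4 were called: Mgll, the monoglyceride lipase, at 1.27 and the lysosomal lipase Lipa at 0.38 were higher, and Lipe, the hormone-sensitive lipase, at -0.57 and Abhd6 at -0.28 were lower.

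**Figure D4:**
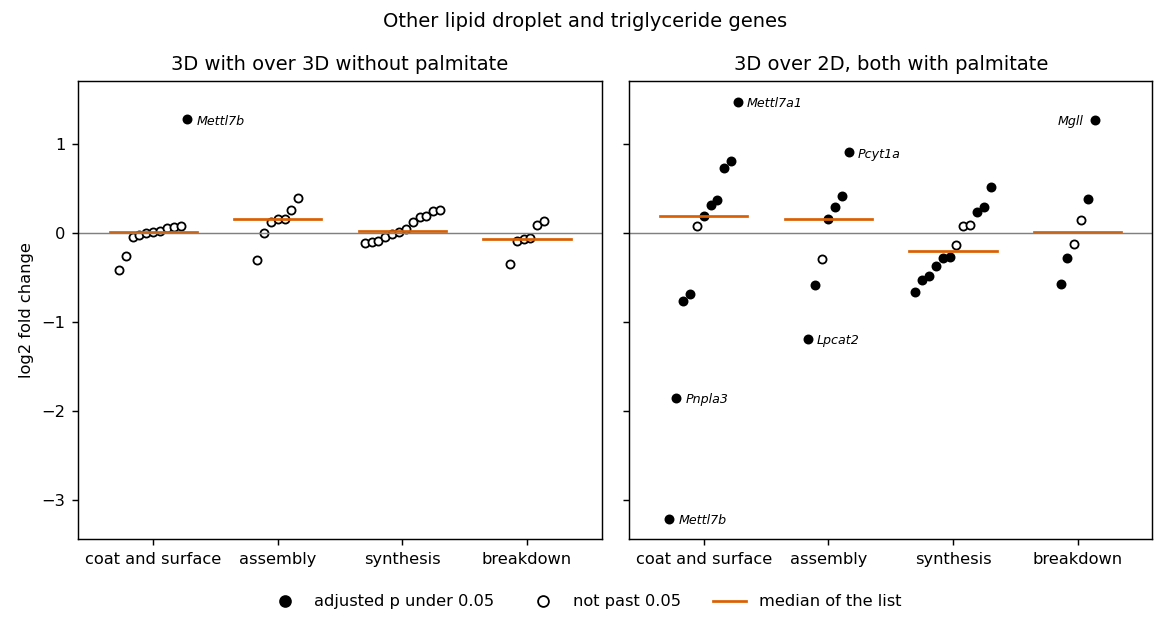
Log2 fold changes of the 36 tested genes of the 4 other lists in both comparisons, with each gene as a point, filled where the adjusted p was under 0.05, and the list median as a bar (lipolysis genes stand under breakdown). With palmitate 1 gene, Mettl7b, is called, while between growth forms called genes lie on both sides of 0 in each of the 4 lists.

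The 13 listed genes that failed the filter included the perilipins and coat proteins of adipocytes and hepatocytes. Plin1 had at most 2 counts in any library, Plin5 5, Cidea 7, Cideb 6, Cidec 1 and Hsd17b13 1. The others were Fitm1 with at most 2, Gpat2 with 13, Mogat1 and Mogat2 with 1 each, Gpd1 with 10, Ces1d with 0 and Aadac with 1.

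The 5 genes whose pair of log2 fold changes lay nearest to that of Plin2 over the 3 conditions were Gpr85, Bdkrb1, Aloxe3, Tceal1 and Atp8b4, at distances of 0.080 to 0.112 on the log2 scale among 12574 genes. All 5 were low, with group means of at most 3.17 CPM, and Aloxe3 was the 1 of them that was called in both comparisons. Among the 232 other genes called in both, a restriction made after the values were seen, the nearest were Aloxe3 at 0.093, Fam195a at 0.273, Prr7 at 0.350, Sesn2 at 0.389 and Relt at 0.396.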

How the data were processed

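RNA-seq was performed on 9 libraries of 4T1 cells prepared with a stranded mRNA kit. The authors deposited raw counts of reads per gene, which per the methods and the submitters' processing notes came from reads trimmed with fastq-mcf, inspected with FastQC (version 0.11.9), aligned to GRCm38 with HISAT2 (version 2.1.0) and counted with HTSeq-count. The annotation release and the strand setting of the counting are not given in the sources used here, so overlapping and antisense genes may share or lose reads, and near-identical copies may lose theirs. The reference is of the C57BL/6J strain while the cells come from BALB/c.

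Libraries were grouped by their labels. Genes were filtered with filterByExpr, scaled by TMM and tested with edgeR's quasi-likelihood test (edgeR 4.0.16, R 4.3.3) in 1 model of all 9 libraries, with Benjamini-Hochberg adjustment over 12575 genes and calls at an adjusted p under 0.05. Standard errors were derived as the log2 fold change over the square root of the F statistic. Lengths, GC content and coordinates came from GENCODE M21 on GRCm38. Reads were divided by the length of a gene's merged exons. GC content, and the length in the trend of GC content and length, were those of its longest transcript. The fits were tested on simulated counts with 200 changed genes. Of these, 192 were recovered in each comparison, with 17 false calls for palmitate and 16 for growth form. The simulation gave every gene the same spread and held no GC-linked deviation, so it does not cover that of these libraries. Alternatives were other scalings and filters, DESeq2 (version 1.42.0), the 2 groups alone, a replicate block, the Rn45s share as a covariate, each library left out and, added after results were known, removal of a trend of GC content and length. The members and gene lists were chosen with earlier results of these data known. Named genes were the members, the 2 called genes with the smallest p per list, comparison and direction, listed genes that failed the filter, the 5 nearest to Plin2, and Rn45s. 5 listed genes stand in the table under older symbols.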

Additional observations from a re-analysis of the deposited data

How the results depend on the processing

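Plin2 and Hsd17b11 were called with palmitate in all 18 alternatives, with log2 fold changes of 0.98 to 1.08 and 0.56 to 0.70, and the same 7 members were called between growth forms in all 18. The count of members called with palmitate was 2, and 3 with Hilpda added without a filter, with DESeq2 and after the trend of GC and length was removed. Leaving out 1 library gave 2 to 4, with 4 without library 3 of 3D with palmitate. Over all genes, 275 were called with palmitate, against 617 without a filter, 77 with the 2 groups alone, 44 with the Rn45s share as a covariate, 918 after GC and length trend removal, and 71 to 1901 with 1 library left out, where 1901 was without library 3 of 3D with palmitate. The share of calls higher with palmitate was 62.9%, against 46.7% with scaling by library size only and 52.7% without a filter. In the other lipid droplet lists, the 1 call with palmitate became 0 with library size only, with at least 10 counts in every library, with the 2 groups alone and with the Rn45s covariate, 2 without a filter and with DESeq2, 3 after GC and length trend removal, and 0 to 5 with 1 library left out, with 5 again without library 3 of 3D with palmitate. Between growth forms 20 of the 29 list calls held in every alternative. The cause of these changes was not tested.

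With a replicate block, 111 genes were called with palmitate, with the same 2 members and 0 list genes. The labels do not say whether replicate numbers pair the libraries. Deviations of same-numbered libraries correlated from -0.33 to 0.19 and those of other-numbered libraries from -0.24 to 0.37. These correlations cannot show how the cultures were made.

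Signs turned for uncalled members and for the list genes Lpin2 and Gpat4, both called higher in 3D than in 2D. Lpin2 went from 0.29 to -0.041, not called, after GC and length trend removal. That removal also moved the median log2 fold change over all genes between growth forms from 0.008 to -0.095. The share of calls higher in 3D went from 50.4% to 41.0%. Gpat4 went from 0.24 to a lowest value of -0.088 among the alternatives. It lost its call after GC and length trend removal and without library 3 of 2D. With palmitate, Plin3 was -0.025 with the Rn45s covariate and -0.065 to 0.11 with 1 library left out, including -0.01, Plin4 was 0.016 with DESeq2 and -0.68 to 0.51 with 1 library left out, including 0.14, and Pnpla2 was -0.080 to 0.23. Between growth forms Plin4 was -0.22 to 0.97, including -0.05. Without division by length, the Plin2 share was 40.7%, 58.2% and 73.9% in 3D without palmitate, 3D with palmitate and 2D, and the inhibitor ratio was 0.183, 0.249 and 0.227. Depth limits Plin4, at 3 to 14 counts per library. The part of depth, or of reads lost to the overlapping Lamb3, in the low count of G0s2 was not tested.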
